A study of Drosophila melanogaster with 18 samples.

Results

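The genes of the mitochondrial genome were compared between *modulo* mutant and control testes of *Drosophila melanogaster*. Members were taken by name, as every gene whose FlyBase symbol starts with mt:, which gave 37 of the 17575 genes in the count files: 13 protein-coding genes, 2 ribosomal RNA (rRNA) genes and 22 transfer RNA (tRNA) genes. The rule uses names only, but it was chosen with earlier results of these data known. The mutant animals carried the alleles modL8/mod07570, and the control animals carried mod07570/+. Every animal thus had 1 copy of mod07570, and the control was heterozygous rather than free of mutant *modulo* alleles. Testes were dissected from males aged 1 to 3 days that were reared at 25 °C. Total RNA was depleted of rRNA and sequenced by strand in 3 replicates of each genotype, each run on 3 lanes. The series text calls these biological replicates without saying how the flies of a replicate were grouped, so the tests measure the spread between these samples. The sources used here do not say which parent supplied which allele, and mitochondrial DNA is inherited from the mother.

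The mitochondrial genome is a small circular DNA kept apart from the nucleus. Both of its strands carry genes and are copied into long precursor RNAs, and the tRNA sequences that lie between many of the other genes are cut out to release the mature RNAs. The proteins it encodes are all subunits of the respiratory chain and of ATP synthase, which make most of the ATP of the cell, and its rRNAs and tRNAs serve the ribosomes inside mitochondria. Every other protein of the organelle, including the polymerase that transcribes this genome, is encoded in the nucleus. In fly spermatids the mitochondria fuse into a large body, the nebenkern, which elongates along the sperm tail. *modulo* encodes the fly homolog of Nucleolin, a protein of the nucleolus.

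On the release 6 assembly (dm6), the members lie on the mitochondrial genome between position 1 and position 14916. Complex I, the NADH dehydrogenase, has 7 members, of which mt:ND2, mt:ND3 and mt:ND6 lie on the plus strand, and mt:ND1, mt:ND4, mt:ND4L and mt:ND5 on the minus strand. Complex III has mt:Cyt-b, complex IV (cytochrome c oxidase) has mt:CoI, mt:CoII and mt:CoIII, and ATP synthase has mt:ATPase6 and mt:ATPase8, all on the plus strand. Both rRNA genes lie on the minus strand, and the tRNA genes are divided into 14 on the plus strand and 8 on the minus strand.

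Total counts were 90898270 to 107435749 in mutant replicates and 87119206 to 94915990 in control replicates, with 823432 to 2475088 counts on mitochondrial genes, so that counting error is small for the abundant members. *mod* itself, which checks the labels, had 2.06, 1.91 and 1.28 normalized counts per 1000000 (CPM) in mutant testes, against 21.7, 20.7 and 22.2 CPM in control testes, a log2 fold change of -3.62. In bulk testes, fewer cells of a type and less RNA per cell cannot be told apart. Summed over 8 markers of hub and cyst cells, which are among the somatic cells of the testis, the level was 148 to 153 CPM in mutant. In control it was 178 to 183 CPM. The 11 muscle markers summed to 810 to 1260 CPM in mutant and 1030 to 1280 CPM in control, the 14 accessory gland markers to 170 to 292 CPM in mutant and 59 to 405 CPM in control, and the 11 fat body markers to 109 to 149 CPM in mutant and 122 to 150 CPM in control. In the germline, 6 early markers summed to 141 to 202 CPM in mutant and 141 to 168 CPM in control, 12 spermatocyte markers to 1480 to 2230 CPM in mutant and 1730 to 2020 CPM in control, and 13 late spermatid markers to 4450 to 5400 CPM in mutant and 5250 to 5390 CPM in control. Of these 7 lists, the sums of the hub and cyst list were the only ones that did not overlap between genotypes. In the late spermatid list 1 marker was at 0 in every replicate. The part of cell makeup in the results that follow was not tested.

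Mitochondrial genes held a larger share of the counts in each mutant replicate than in any control replicate. The share was 1.37%, 1.72% and 2.72% of all counts in mutant, against 0.906%, 1.31% and 1.15% in control, and mutant replicate 3 stood apart from the other 2 mutant replicates. The means were 1.94% ± 0.702 in mutant and 1.12% ± 0.203 in control (SD, n = 3 each), and the ratio of the geometric means was 1.67 (log2 difference 0.74). The exact two-sided permutation test gave p = 0.1, which is the smallest value that 3 against 3 replicates allow, so this share cannot reach the 0.05 threshold. Without mutant replicate 3 the log2 difference was 0.47 (exact permutation p = 0.2).

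This difference lay in the protein-coding genes, with mean shares of 1.67% in mutant and 0.800% in control. The mean share of the rRNA genes was not higher in mutant (0.268% against 0.323%). The protein-coding genes held 1.25%, 1.38% and 2.38% of counts in mutant, against 0.745%, 0.825% and 0.829% in control, a ratio of 2.00 (exact permutation p = 0.1). The control replicates lay within a narrow band, while mutant replicate 3 was well above the other mutant replicates. The rRNA genes held 0.120%, 0.343% and 0.339% of counts in mutant, against 0.161%, 0.483% and 0.324% in control, and the genotypes overlapped (log2 difference -0.28, exact permutation p = 0.7). By complex, the log2 difference in the share of counts was 1.82 for complex III, 0.97 for complex IV, 0.82 for ATP synthase and 0.78 for complex I, and in each the 3 mutant values lay above the 3 control values, with the same exact permutation p of 0.1. The 22 tRNA genes together held 219, 216 and 395 counts in mutant and 119, 148 and 144 counts in control, at most 0.0160% of mitochondrial counts.

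**Figure D1:**
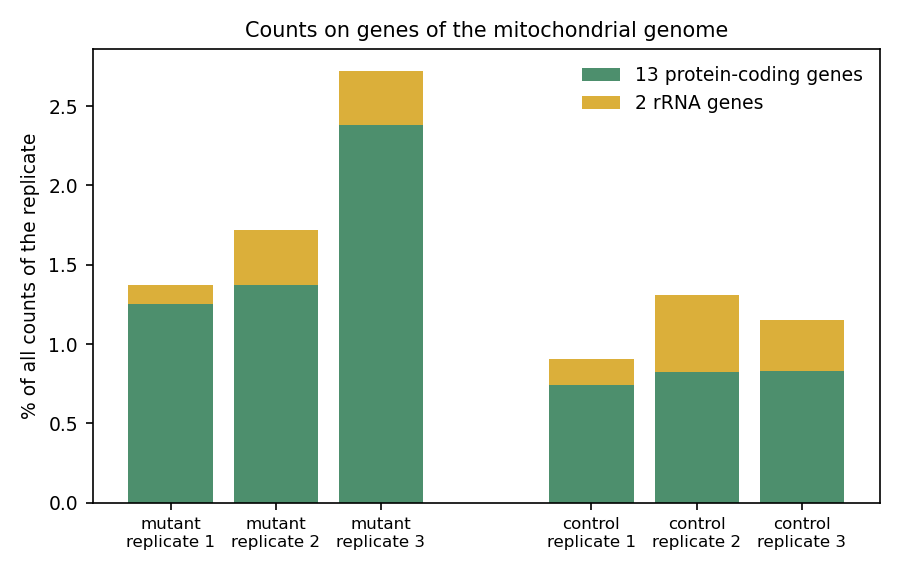
Percent of all counts of each replicate (y axis) that fell on the protein-coding and rRNA genes of the mitochondrial genome, as stacked bars, with the 3 mutant replicates left of the 3 control replicates. The protein-coding part was 1.25% to 2.38% in mutant and 0.745% to 0.829% in control, while the rRNA parts overlapped.

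Gene by gene, 17 members were tested, having 10 or more counts in 3 or more of the 6 replicates, namely all 13 protein-coding genes, both rRNA genes and 2 tRNA genes. By the quasi-likelihood test of edgeR, with p-values adjusted by Benjamini-Hochberg over all 14059 genes tested, 6 members rose in the mutant and 0 fell. Across all genes tested, 32.3% were called at an adjusted p under 0.05, 14.5% higher and 17.8% lower. The members' share called higher was 35.3%, beside 14.5% of all genes. The members are copied together in long precursor RNAs, so they are not 17 separate observations, and this difference in shares was not tested. The median log2 fold change of the tested members was 0.98, while over all genes it was 0.02, and 14 of the 17 had a positive value. In 8 members (47.1%) all mutant values were above all control values, which was so for 23.2% of all genes, and in 0 members were they all below, which was so for 24.1% of all genes. At an unadjusted p under 0.05, 10 members differed (58.8%), beside 43.7% of all genes. No label says that same-numbered samples belong together, and the replicate numbers were taken to pair them from correlations across genes alone. With the replicate number as a block 10 members rose (58.8%) and 0 fell. In that fit 45.6% of all genes were called and 22.2% were called higher. Without the block, the called members numbered 3 when control replicate 3 was left out, where 2754 of all genes were called. They numbered 9 when mutant replicate 1 was left out, where 5895 of all genes were called. With all replicates, 4547 of all genes were called. Mutant replicate 3 was the highest of the 6 replicates in 13 of the 17 tested members, including all 6 that were called.

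**Figure D2:**
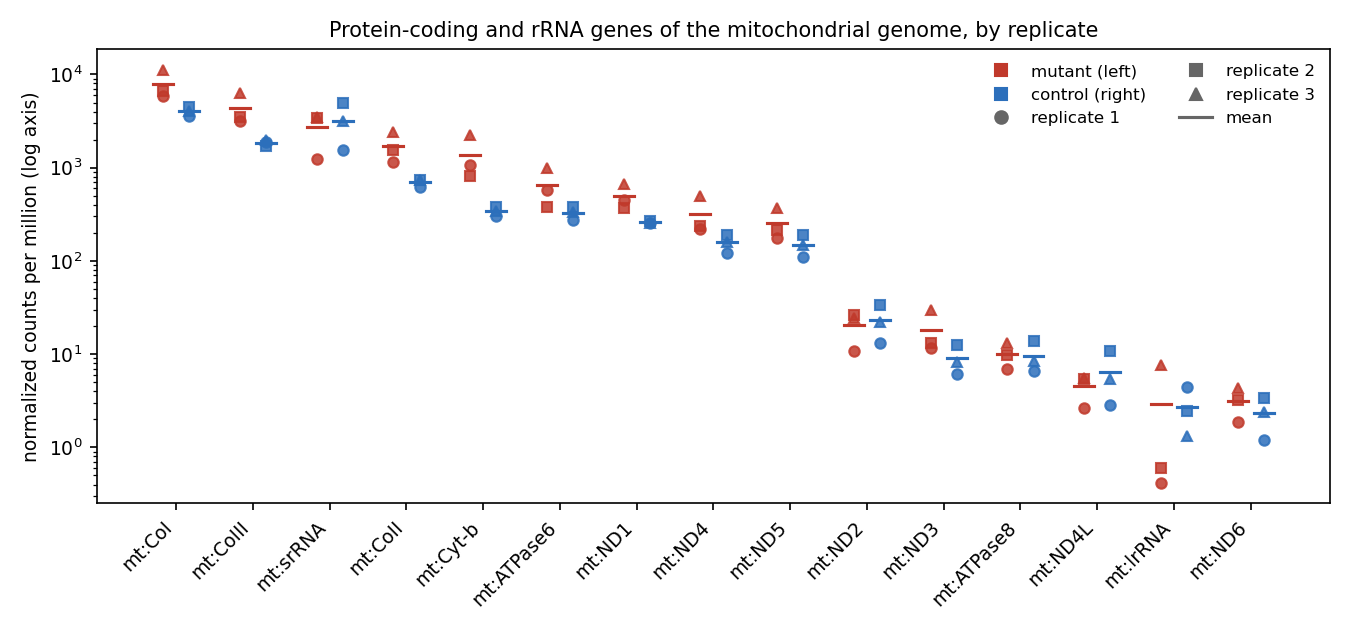
Normalized CPM (y axis, log scale) of the 13 protein-coding and 2 rRNA genes, ordered by mean level, with mutant left of control, 1 symbol per replicate and a line at each mean. The genotypes are separate for mt:CoI, mt:CoII, mt:CoIII and mt:Cyt-b and overlap for mt:srRNA, mt:lrRNA, mt:ND2, mt:ATPase8 and mt:ND4L.

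Cytochrome c oxidase (complex IV), the enzyme that passes electrons to oxygen, was the most abundant class and all 3 of its members rose. mt:CoI (FBgn0013674, positions 1474 to 3009), which encodes the catalytic subunit, had 5902, 6618 and 11186 CPM in mutant testes, against 3568, 4464 and 4023 CPM in control testes. Its mutant and control values did not overlap, and it had the fifth highest mean CPM of all genes tested, without regard to length. The log2 fold change of mt:CoI was 0.98 (SE 0.25, adjusted p = 0.0228), and the adjusted p was 0.0777, 0.0542 and 0.0814 when control replicate 1, 2 or 3 was left out. mt:CoII (FBgn0013675, positions 3083 to 3767), which encodes the subunit that takes electrons from cytochrome c, had 1151, 1545 and 2396 CPM in mutant and 622, 742 and 742 CPM in control. Its log2 fold change was 1.27 (SE 0.26, adjusted p = 0.00980). mt:CoIII (FBgn0013676, positions 4736 to 5524), which encodes the third core subunit, had 3166, 3532 and 6298 CPM in mutant and 1865, 1728 and 1958 CPM in control, a log2 fold change of 1.23 (SE 0.26, adjusted p = 0.0114). For both of these genes the control values were close together and the mutant values were spread, with replicate 3 highest. Together the 3 genes made up 52.0% to 73.1% of mitochondrial counts in a replicate.

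Complex III passes electrons from ubiquinol to cytochrome c, and its only mitochondrially encoded subunit is cytochrome b. mt:Cyt-b (FBgn0013678, positions 10499 to 11635) had the largest fold change among the tested members. It reached 1074, 808 and 2234 CPM in mutant testes, against 303, 379 and 345 CPM in control testes, so that the lowest mutant value was above the highest control value. The log2 fold change was 2.00 (SE 0.37, 95% interval 1.14 to 2.87, adjusted p = 0.00652), and with same-numbered replicates compared it was 1.83, 1.09 and 2.69. Leaving out any 1 replicate, the fold change of mt:Cyt-b ran from 1.46 to 2.27 on the log2 scale and the adjusted p stayed at or under 0.0338. Among the protein-coding mitochondrial counts of a library, a measure that does not depend on the scaling between libraries, mt:Cyt-b held 8.42%, 5.87% and 9.04% in mutant and 4.24%, 4.503% and 4.31% in control. By contrast mt:CoI held 46.3%, 48.1% and 45.2% in mutant and 49.9%, 53.1% and 50.2% in control. The share of mt:Cyt-b was therefore above its control share in every mutant replicate, and that of mt:CoI below it. These shares were chosen after the values were seen and are given with no test.

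Complex I takes electrons from NADH, and its mitochondrially encoded subunits form the core of the membrane arm that pumps protons. Of its 7 members 1 was called. mt:ND1 (FBgn0013679, positions 11721 to 12659, minus strand) had 451, 369 and 671 CPM in mutant, against 253, 265 and 257 CPM in control, with a log2 fold change of 0.94 (SE 0.21, adjusted p = 0.0140). Its control values were nearly equal and all mutant values lay above them, although the adjusted p was 0.0595 without control replicate 3. mt:ND4 (FBgn0262952, positions 8207 to 9545, minus strand) had 219, 238 and 500 CPM in mutant and 123, 191 and 160 CPM in control, without overlap. Its adjusted p was 0.0587 and 0.0103 with the replicate block. mt:ND5 (FBgn0013684, positions 6409 to 8125, minus strand) had 176, 215 and 371 CPM in mutant and 110, 189 and 147 CPM in control, and mt:ND3 (FBgn0013681, positions 5608 to 5961, plus strand) had 11.6, 13.2 and 29.7 CPM in mutant and 6.20, 12.6 and 8.27 CPM in control. In both genes mutant replicate 1 fell below control replicate 2, so the genotypes overlapped. The adjusted p was 0.0997 for mt:ND5 and 0.106 for mt:ND3, and 0.0155 and 0.0291 with the replicate block.

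The other 3 complex I genes did not pass the test with or without the block. mt:ND2 (FBgn0013680, positions 240 to 1263) had 10.9, 26.0 and 24.5 CPM in mutant and 13.3, 33.8 and 22.3 CPM in control, and mt:ND6 (FBgn0013685, positions 9971 to 10495) had 1.88, 3.21 and 4.37 CPM in mutant and 1.21, 3.35 and 2.38 CPM in control. mt:ND4L (FBgn0013683, positions 9545 to 9835) had 2.63, 5.39 and 5.55 CPM in mutant and 2.86, 10.8 and 5.48 CPM in control. All 3 were lowest in replicate 1 of both genotypes and overlapped between genotypes. Their log2 fold changes were -0.18 (95% interval -1.16 to 0.81) for mt:ND2, 0.44 (-0.55 to 1.43) for mt:ND6 and -0.50 (-1.66 to 0.67) for mt:ND4L. A doubling in mutant stayed within the interval of mt:ND6 only, and a halving within those of mt:ND2 and mt:ND4L only.

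The 2 ATP synthase genes encode subunits of its membrane part. mt:ATPase6 (FBgn0013672, positions 4062 to 4736), the subunit that forms the proton channel, had 583, 379 and 990 CPM in mutant and 275, 377 and 333 CPM in control. Mutant replicate 2 stood only just above control replicate 2, and the log2 fold change was 0.99 (SE 0.33, adjusted p = 0.0590, and 0.0243 with the replicate block). mt:ATPase8 (FBgn0013673, positions 3907 to 4068), a short subunit, had 6.92, 9.85 and 13.2 CPM in mutant and 6.59, 13.7 and 8.55 CPM in control, which overlapped (log2 fold change 0.06, adjusted p = 0.909). The first bases of mt:ATPase6 overlap the last 7 bases of mt:ATPase8, and mt:ATPase6 and mt:CoIII, as well as mt:ND4L and mt:ND4, share 1 base, so read pairs that cross these borders cannot be given to 1 gene with certainty.

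**Figure D3:**
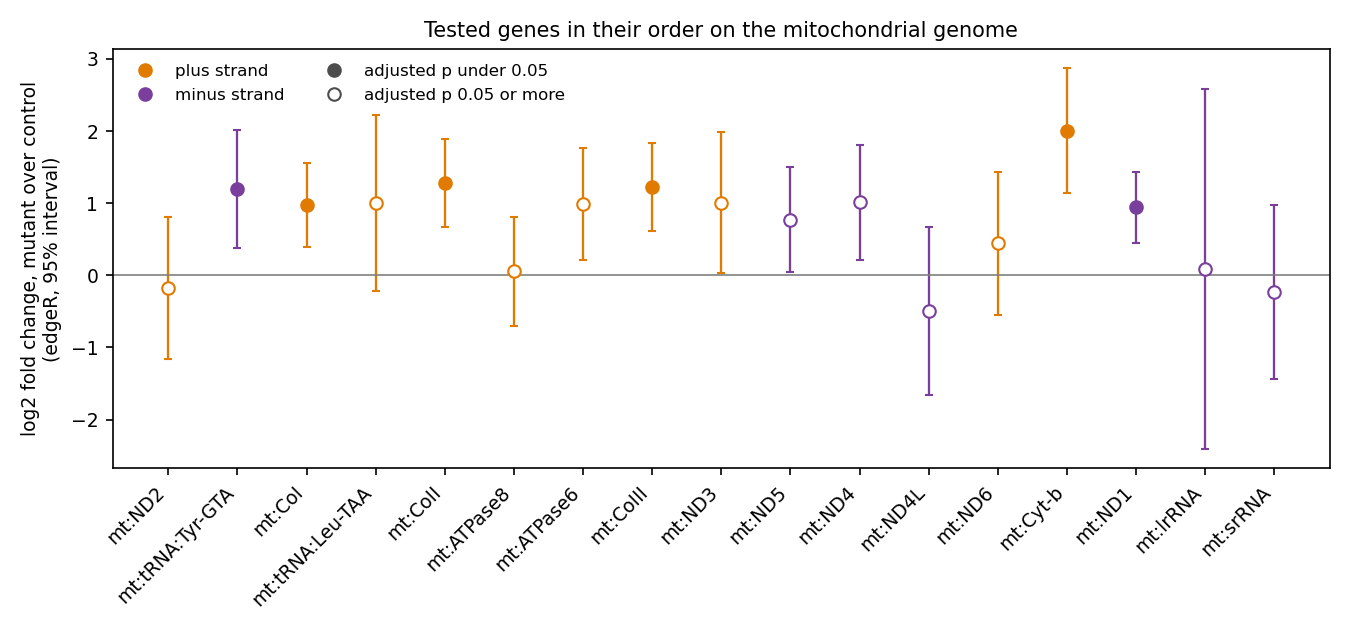
Log2 fold change of mutant over control from edgeR (y axis) with its 95% interval for the 17 tested members in their order along the mitochondrial genome (x axis, order only), with colour for the strand and filled points for an adjusted p under 0.05. The 6 filled points lie between 0.94 and 2.00, and occur on both strands.

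The rRNA genes did not pass the test. mt:srRNA (FBgn0013688, positions 14131 to 14916), the RNA of the small ribosomal subunit, had 1225, 3435 and 3513 CPM in mutant and 1543, 4922 and 3130 CPM in control, and had the 18th highest mean CPM of all genes tested, without regard to length. Its log2 fold change was -0.23 (95% interval -1.44 to 0.97, adjusted p = 0.761), and in both genotypes replicate 1 was the lowest. mt:lrRNA (FBgn0013686, positions 12735 to 14058), the RNA of the large subunit, was nearly absent, with 44, 60 and 678 counts in mutant and 417, 227 and 121 counts in control. The counts of mt:lrRNA followed neither genotype nor replicate number, and 1 library decided the fold change: it was 0.09 on the log2 scale (adjusted p = 0.958) with all replicates and -2.42 (adjusted p = 0.0234) without mutant replicate 3. Within a library the counts on mt:srRNA, not divided by length, exceeded those on mt:lrRNA by 2932, 5656 and 454 times in mutant and by 350, 2019 and 2333 times in control. The libraries had been depleted of rRNA, and the counts left on cytosolic rRNA genes were 0.0790%, 0.105% and 0.187% of each mutant library and 0.289%, 0.257% and 0.124% of each control library. The part of this depletion in the levels of the mitochondrial rRNAs was not tested.

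Set against the protein-coding counts of the same library, rRNA was lower in mutant within each same-numbered pair. The ratio of rRNA to protein-coding counts was 0.0960, 0.250 and 0.142 in mutant and 0.216, 0.586 and 0.391 in control. The log2 differences within pairs were -1.17, -1.23 and -1.46, but mutant replicate 2 lay above control replicate 1. The log2 difference of -1.29 had an exact two-sided permutation p of 0.2, and 0.25 when permuted within pairs, the smallest p that 3 pairs allow. Nearly all of these rRNA counts were mt:srRNA.

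The 2 strands were compared by the ratio of minus-strand to plus-strand protein-coding counts, which was 0.0714, 0.0640 and 0.0668 in mutant and 0.0734, 0.0846 and 0.0766 in control. The minus strand thus held a slightly smaller part in every mutant replicate than in any control replicate, with a fold of 0.862 (log2 difference -0.21, exact permutation p = 0.1). The direction depended on the genes compared. With complex I genes only, the ratio was 34.7, 19.5 and 26.4 in mutant and 23.6, 13.2 and 17.3 in control, which is higher in mutant in 3 of 3 pairs and overlaps between genotypes (log2 difference 0.58, exact permutation p = 0.2). The plus-strand complex I genes are the sparsely counted mt:ND2, mt:ND3 and mt:ND6, whereas the plus-strand total is mostly made of the complex IV genes and mt:Cyt-b.

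Neighbouring genes on 1 strand with no tRNA gene between them were also set against each other within each library, a comparison chosen after the values were seen. The ratios are of counts, not divided by length, so only their difference between genotypes is read. The 4 such pairs had more counts on the downstream gene, in every replicate. mt:Cyt-b, with 3 bases between it and mt:ND6, exceeded mt:ND6 by 572, 252 and 511 times in mutant and by 249, 113 and 145 times in control. mt:ND4 exceeded mt:ND4L by 83.5, 44.1 and 90.1 times in mutant and by 42.8, 17.7 and 29.3 times in control. In both pairs every mutant ratio was above every control ratio, with log2 differences of 1.39 and 1.30 and an exact permutation p of 0.1 (0.2 adjusted over the 4 ratios). mt:ATPase6 exceeded mt:ATPase8 by 84.2, 38.5 and 75.0 times in mutant and by 41.7, 27.6 and 38.9 times in control, where mutant replicate 2 was below controls 1 and 3 (log2 difference 0.81, exact permutation p = 0.3, adjusted 0.4). The ratio of mt:CoIII to mt:ATPase6 was 5.43, 9.31 and 6.36 in mutant and 6.78, 4.59 and 5.88 in control, without a common direction across the pairs (log2 difference 0.27, exact permutation p = 0.5). Because these ratios are taken within a library, a general rise of mitochondrial RNA cancels out of them. In the first 3 pairs the upstream gene is among the most sparsely counted of the protein-coding members, and the part of read pairs that span 2 genes in these ratios was not tested.

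**Figure D4:**
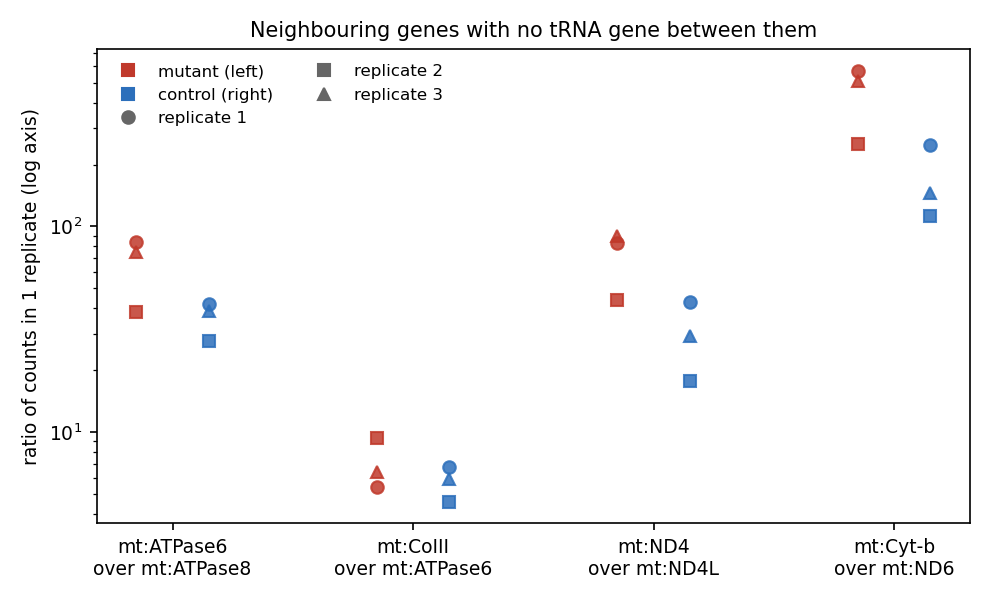
Ratio of the counts of a downstream gene to those of its upstream neighbour in each replicate (y axis, log scale) for 4 pairs with no tRNA gene between them, with mutant left of control and 1 symbol per replicate. All mutant ratios exceed all control ratios for mt:ND4 over mt:ND4L and for mt:Cyt-b over mt:ND6.

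The protein-coding genes were also ordered by level per length, as CPM per kilobase. In mutant the order of the protein-coding genes began with mt:CoIII (5490 ± 2170 CPM per kilobase, SD, n = 3), mt:CoI (5145 ± 1866), mt:CoII (2478 ± 929), mt:Cyt-b (1207 ± 667) and mt:ATPase6 (964 ± 461). In control it began with mt:CoI (2616 ± 292), mt:CoIII (2346 ± 146), mt:CoII (1025 ± 101), mt:ATPase6 (486 ± 75.7) and mt:Cyt-b (301 ± 33.4). The first 2 genes in each order differed by no more than about the spread between replicates, and so did mt:Cyt-b and mt:ATPase6 in mutant. Within a library, mt:CoIII was above mt:CoI in 3 of 3 mutant replicates and in 1 of 3 control replicates. mt:Cyt-b was above mt:ATPase6 in 3 of 3 mutant replicates and in 0 of 3 control replicates. The places of the other 8 genes were the same in both genotypes: mt:ND1, mt:ND4, mt:ND5, mt:ATPase8, mt:ND3, mt:ND2, mt:ND4L and, lowest, mt:ND6 with 6.01 ± 2.38 in mutant and 4.41 ± 2.04 in control. mt:ATPase8, mt:ND3, mt:ND2, mt:ND4L and mt:ND6 all lay below 100 CPM per kilobase in every replicate of either genotype. Of these, mt:ATPase8 (162 bases) and mt:ND4L (291 bases) are short, and each overlaps a longer neighbour. The part of short length and of read pairs that span 2 genes in these levels was not tested, so the order is one of counts assigned.

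Transfer RNAs carry amino acids to the ribosome and their genes, of 62 to 72 bases, are shorter than 1 read of this sequencing. mt:tRNA:Tyr-GTA (FBgn0013710, positions 1403 to 1468, minus strand) was the only one with a substantial count, and it had 148, 160 and 299 counts in mutant and 83, 84 and 91 counts in control. The genotypes did not overlap, with 1.40, 1.62 and 3.41 CPM in mutant and 0.877, 0.902 and 1.01 CPM in control. Its log2 fold change was 1.20 (SE 0.35, adjusted p = 0.0363), and the call was lost without mutant replicate 2 (adjusted p = 0.0547) or without control replicate 1, 2 or 3 (0.104, 0.109 and 0.0967). The gene lies 5 bases from mt:CoI on the opposite strand. mt:tRNA:Leu-TAA, between mt:CoI and mt:CoII, had 25, 8 and 22 counts in mutant and 7, 6 and 13 counts in control, which overlap (adjusted p = 0.184). The 20 tRNA genes that were not tested had 0 to 17 counts in a replicate, and together 46, 48 and 74 counts in mutant and 29, 58 and 40 counts in control. Of these, the genes for Glu-TTC, Phe-GAA, His-GTG, Ser-TGA and Val-TAC had 0 counts in all 6 replicates, which allows up to 0.00526 CPM over the 570105025 counts together. This limit covers counting error only. Whether the library preparation keeps RNAs as short as a mature tRNA was not tested, so a low count does not show that a tRNA is scarce. Nor was it tested whether the counts of mt:tRNA:Tyr-GTA come from the mature tRNA, from longer RNA or from reads of the opposite strand.

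Nuclear genes that act on the mitochondrial genome were then read from the same edgeR fit. This list and those that follow were also chosen with earlier results of these data known. Of 26 genes listed for its transcription, replication and RNA processing, 22 were tested, and 10 rose and 0 fell (45.5% higher, beside 14.5% of all genes). The median log2 fold change was 0.35, and with the replicate block 16 rose, where 22.2% of all genes did. mTerf3, of the mitochondrial transcription termination factor family, had 4.33, 3.95 and 3.79 CPM in mutant and 2.06, 1.89 and 2.06 CPM in control, a log2 fold change of 1.00 (SE 0.11, adjusted p = 0.000669). mtDNA-helicase, which unwinds mitochondrial DNA for replication, had 3.36, 3.33 and 3.20 CPM in mutant and 1.63, 1.93 and 1.61 CPM in control, a log2 fold change of 0.94 (SE 0.12, adjusted p = 0.00142). Both genes were low in level, and every mutant value lay above every control value. Smaller rises were called for EndoG, a mitochondrial endonuclease (0.62), mtSSB, which binds single-stranded mitochondrial DNA (0.51), mTerf5 (0.45), rswl, a subunit of mitochondrial RNase P (0.39), the RNA helicase Suv3 (0.37) and Lrpprc2 (0.36). Not all listed genes for RNA processing rose. scu (0.03, adjusted p = 0.908), mldr (0.11, 0.657) and RNaseZ (0.16, 0.265) overlapped between genotypes and were named after their values were seen. PolrMT, the mitochondrial RNA polymerase, had 37.9, 26.9 and 23.3 CPM in mutant and 27.5, 21.5 and 22.3 CPM in control, and TFAM, which packages mitochondrial DNA and aids transcription, had 22.2, 24.3 and 26.4 CPM in mutant and 20.2, 20.9 and 24.0 CPM in control. Both overlapped between genotypes (adjusted p = 0.273 for PolrMT and 0.277 for TFAM), and they were singled out after their values were seen. Both were higher in mutant in 3 of 3 same-numbered pairs. With the replicate block the adjusted p was 0.0373 for PolrMT and 0.102 for TFAM.

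Of 27 listed aminoacyl-tRNA synthetases and translation factors of mitochondria, 25 were tested, and 11 rose (44.0%, beside 14.5% of all genes) and 1 fell, with a median log2 fold change of 0.28. MetRS-m, which charges the methionine tRNA, had 17.7, 18.4 and 17.5 CPM in mutant and 10.06, 9.66 and 10.01 CPM in control, a log2 fold change of 0.85 (SE 0.07, adjusted p = 0.000304). The values of MetRS-m were far apart between genotypes and close together within them. TyrRS-m (0.57), the recycling factor mRRF2 (0.56), the elongation factor mEFG1 (0.45), PheRS-m (0.44), IleRS-m (0.43), the initiation factor mIF2 (0.40) and AlaRS-m (0.38) rose as well. The called genes of this list were low in level, with mutant means of at most 43.3 CPM. Its most abundant genes were not called: TrpRS-m (log2 fold change -0.03), mEFTs (-0.004), CysRS-m (-0.17), mEFTu2 (0.11), ValRS-m (-0.16) and AspRS-m (-0.11). These were named after their values were seen, and their mutant means ran from 83.3 to 952 CPM. The 1 gene that fell was ArgRS-m (-0.34, adjusted p = 0.0274), named after its values were seen. Among 72 tested proteins of the mitochondrial ribosome, 38 rose and 0 fell (52.8% higher), with a median log2 fold change of 0.39, and 55 rose with the replicate block, under which 22.2% of all genes were called higher.

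Nuclear subunits of the same respiratory complexes showed another count. Of 82 tested, 3 rose and 0 fell (3.66% higher, beside 14.5% of all genes), and the median log2 fold change was 0.16. The 3 were ATPsynC, with 257, 272 and 280 CPM in mutant and 221, 212 and 223 CPM in control, COX7AL2 (log2 fold change 0.75) and ND-B17 (0.36), all named after their values were seen. With the replicate block 21 rose (25.6%, beside 22.2% of all genes) and 3 fell. The mitochondrially encoded partners of these proteins had a median of 0.98 on the log2 scale among the 13 protein-coding genes. No test of the difference between lists was made.

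**Figure D5:**
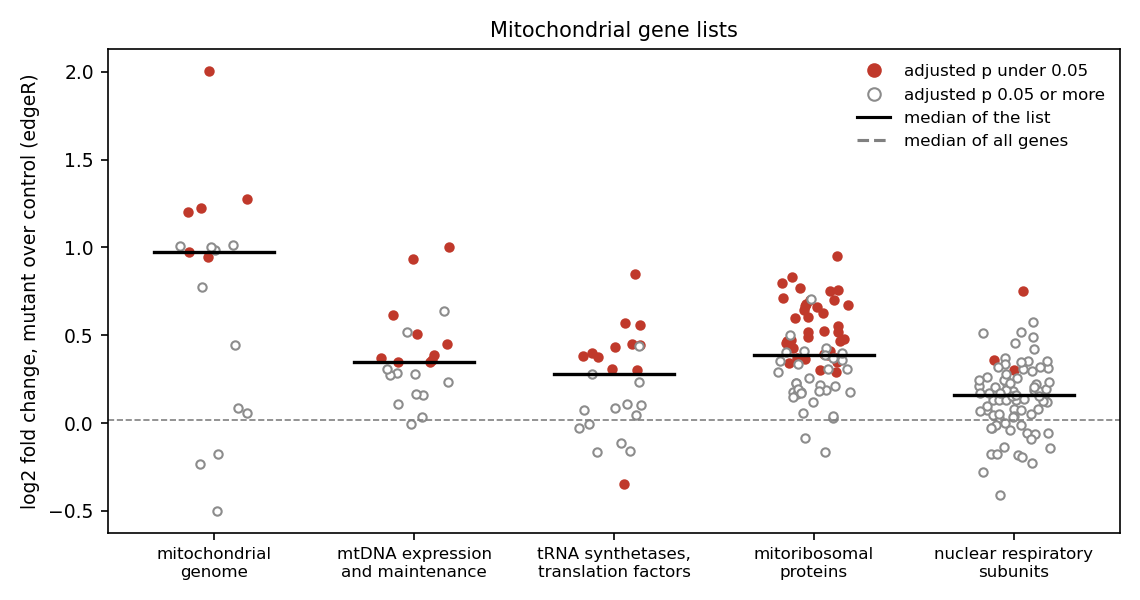
Log2 fold change of mutant over control (y axis) for each tested gene of the mitochondrial genome and of 4 lists of nuclear genes that serve mitochondria, with filled points for an adjusted p under 0.05, a line at each list's median and a dashed line at the median of all genes (0.02). The medians were 0.98, 0.35, 0.28, 0.39 and 0.16, and 3 of 82 nuclear respiratory subunits were called.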

How the data were processed

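Total RNA-seq was analysed from 3 mutant and 3 control testis samples, each on 3 lanes. Per the labels and the methods, the authors aligned read pairs with STAR 2.7.1a to BDGP6/dm6 and counted them by strand on FlyBase genes with featureCounts, where a pair that fits at several places counts as a fraction at each. The deposited values are thus estimated counts per gene without normalization. Fractions occurred in 7 members, in at most 4 of the 18 lane files. Lanes were summed per replicate and rounded. A joint table that repeats the same values was left out. The cut of at least 10 counts in at least 3 of 6 replicates left 14059 genes, tested with edgeR 4.0.16 (TMM, quasi-likelihood, Benjamini-Hochberg) in R 4.3.3 without a block. CPM values are scaled by TMM. Shares and ratios within a library were tested by exact two-sided permutation of log2 values. Counting error of a deep library is small beside the spread between replicates.

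Every member is named or counted. From the lists on mitochondrial DNA and on translation, at most the 8 called genes with the largest change are named, and mitoribosomal and nuclear respiratory genes are given by count and median; exceptions are marked in the text. The members and lists were chosen with earlier results of these data known. Of the 26 and 27 listed symbols, 25 of each matched. Symbols, positions and types came from the annotation BDGP6.54 on the same assembly, whose 38th mt: gene, mt:ori, was not analysed here.

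Deviations from the genotype mean correlated across genes by 0.671, 0.613 and 0.225 between same-numbered samples and by -0.652 to 0.233 between the others. The replicate numbers were taken to pair the samples on this basis alone. Mutant replicate 3 correlated with control replicate 2 (0.233) as much as with control replicate 3 (0.225). What same-numbered samples have in common is not given in the sources used here. Both count tests were tested on simulated data. Alternatives were DESeq2 1.42.0 and its size factors, total counts, other filters, scaling without mitochondrial and rRNA genes, the replicate block, single lanes and each replicate left out.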

Additional observations from a re-analysis of the deposited data

How the results depend on the processing

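Of 339 values under alternatives, 299 kept their direction and side of the threshold or, for a count of calls, stayed within 1.5 times, and none of the 6 called members changed direction. For shares and ratios only the direction was scored, since their exact permutation p cannot fall under 0.1, or 0.25 for pairs. The 299 also include uncalled members that stayed uncalled and single lanes of the same libraries, so this total is not a measure of robustness. The 6 called members became 10 with the DESeq2 test (which called 5211 of all genes) and 10 with the replicate block, and 3 to 9 with each replicate left out, lowest without control replicate 3. Over all genes, 4547 calls became 6409 with the replicate block and 2611 to 5895 with each replicate left out, lowest without mutant replicate 2 (2754 without control replicate 3). mt:CoII, mt:CoIII and mt:Cyt-b stayed called with each replicate left out. mt:tRNA:Tyr-GTA was not called in lane 2 or lane 3 alone (adjusted p = 0.0559 and 0.0542). The paired fit changed the call of mt:ATPase6, mt:ND3, mt:ND4 and mt:ND5 and of no other tested member. The direction changed only in uncalled members: with each replicate left out, the log2 fold change ran from -0.46 to 0.20 for mt:ND2, from -0.19 to 0.39 for mt:ATPase8 (-0.034 in lane 1 alone), from -0.86 to 0.11 for mt:ND4L, from -0.57 to 0.22 for mt:srRNA and from -2.42 to 0.61 for mt:lrRNA (-0.89 with the replicate block). The strand ratio was 0.58 with complex I genes only; there the plus-strand genes are others, by construction. The share of counts differed by 0.47 to 0.96 on the log2 scale with each replicate left out, by 1.00 without rRNA genes and, chosen after seeing the data, by 0.67 without mt:CoI. mt:tRNA:Leu-TAA has no value where it misses the count minimum. The cause of these changes was not tested.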
